A study of Mus musculus with 6 samples.

Results

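Epcam, Spp1, Tspan8, Krt19, Krt7 and Muc1 are genes by which the epithelial cells of the bile duct, the cholangiocytes, are recognised in liver tissue. They were chosen by symbol, and all 6 were found among the 3542 genes of the deposited table. That table holds genes which the authors had already called as changed between the same 6 libraries, so the presence of the 6 genes in it was fixed by the contrast described here. Liver mRNA was sequenced from 3 wild-type, Mul1(+/+), mice and 3 whole-body Mul1 deficient, Mul1(−/−), mice. All 6 mice were fed a high-fat diet (HFD), with 60% of calories from fat, for 16 weeks from 8 weeks of age, and the sex of the mouse behind each library is not given in the sources used here. The labels call the tissue liver and the cell type hepatocytes, while a piece of liver also holds bile ducts, vessels and immune cells. The question put to these libraries was how the loss of Mul1, the gene of a mitochondrial E3 ubiquitin ligase, alters gene expression in the liver under HFD.

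Cholangiocytes line the ducts that drain bile from the liver and modify it by moving water, bicarbonate and other solutes. They make up a small part of the cells of the liver and arise in the embryo from the same progenitors as hepatocytes, with Notch signals and the factor SOX9 among those that set the duct fate. Their number can grow in injured liver, which is known as a ductular reaction. In whole tissue, more cells of a type and more RNA per cell cannot be told apart.

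The targeted gene had fewer counts in every Mul1(−/−) library: the normalized count of Mul1 was 3172, 3232 and 3423 in the Mul1(+/+) mice (replicates 1 to 3) and 1037, 965 and 1753 in the Mul1(−/−) mice, in the same order. Its log2 fold change was −1.44 with a limma adjusted p of 0.0126, which misses the threshold used here, and 710 to 1996 reads per Mul1(−/−) library remained. Each library had between 11932163 and 15385822 reads in the table, which is part of each library and not its depth. One library stood apart: transcripts of the mitochondrial genome took 49.4% of the table's reads in Mul1(−/−) replicate 1, against 22.8% and 15.4% in Mul1(−/−) replicates 2 and 3 and 10.7% to 13.4% in the Mul1(+/+) libraries. The authors' factor was also largest there, with 1 read worth 1.46 normalized counts against 0.817 to 1.22 elsewhere. In the table as a whole the median log2 fold change was 1.12. In the test used throughout, limma on log2(normalized count + 1), a gene was called when its adjusted p was under 0.01 and its log2 fold change beyond 1 in size. By that rule 591 genes, or 16.7% of the table, were called higher and 263, or 7.43%, lower in Mul1(−/−) HFD-liver. The split moved with the scaling: median-ratio scaling over these genes gave 236 higher and 1031 lower, scaling to the table total gave 619 and 724, and scaling to the total of nuclear genes gave 709 and 171. Median-ratio scaling takes most genes as unchanged, whereas all genes of this table had been called as changed. Its factors can therefore remove part of a difference between the groups.

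The mean of all 6 bile duct markers was higher in Mul1(−/−) HFD-liver, by 2.40-fold for Krt7 to 5.48-fold for Krt19, and Epcam and Spp1 were called. The 3 Mul1(−/−) values lay above the 3 Mul1(+/+) values for each of the 6 genes, as they did for 49.3% of the table. The markers differed in how this was spread over the mice: Epcam and Spp1 were high in all 3 Mul1(−/−) libraries, while Krt19 and Muc1 were far higher in Mul1(−/−) replicate 1 than in the other two.

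**Figure D1:**
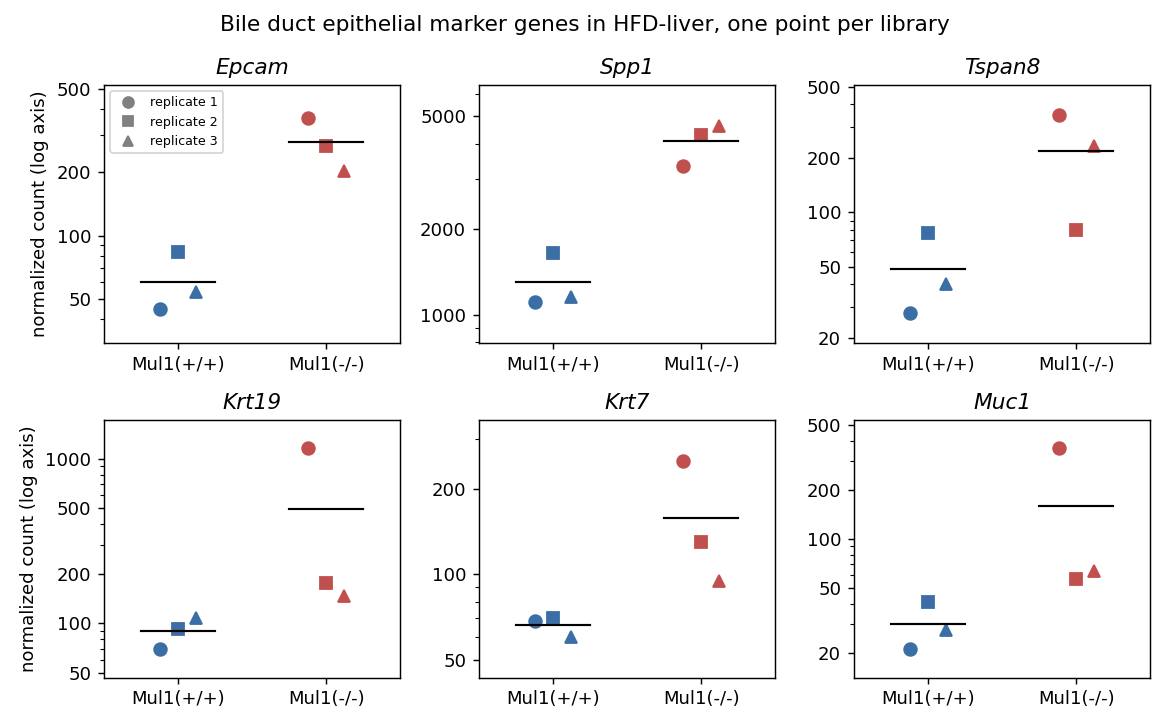
Normalized count (log axis, its range set for each gene) of the 6 bile duct markers in the 3 Mul1(+/+) and 3 Mul1(−/−) libraries, with the group mean as a bar and the replicate number as the symbol. In Krt19, Mul1(−/−) replicate 1 lies at 1151 and the other Mul1(−/−) libraries at 176 and 147, whereas in Epcam all 3 lie between 204 and 361.

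Epcam (ENSMUSG00000045394, chr17:87635979-87651129, plus strand of GRCm38) codes for an adhesion molecule of the epithelial surface that hepatocytes of the adult liver largely lack. Its normalized count was 44.7, 83.2 and 53.9 in the Mul1(+/+) mice (replicates 1 to 3) and 361, 268 and 204 in the Mul1(−/−) mice, in the same order. The lowest Mul1(−/−) library thus lay well above the highest Mul1(+/+) library. The mean rose 4.58-fold, from 60.6 ± 20.1 to 278 ± 79.0 (SD, n = 3 in each group), with a log2 fold change of 2.19 ± 0.42 SE (limma adjusted p = 0.00692). Between 53 and 247 reads per library lie behind these values. Without Mul1(−/−) replicate 1 the log2 fold change was 1.98 (limma adjusted p = 0.00958). The call was lost without any one of the Mul1(+/+) replicates or Mul1(−/−) replicate 2, with adjusted p-values from limma of 0.024 to 0.0301, while the log2 fold change in those 4 fits was 2.0 to 2.44. The same 4 fits called 10 to 46 of the 3542 genes of the table in either direction, against 854 with all libraries.

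Spp1 (ENSMUSG00000029304, chr5:104435118-104441050, plus strand) codes for osteopontin, a secreted phosphoprotein that binds integrins and CD44 and that is made by cholangiocytes and by some macrophages. Its normalized count was 1109, 1645 and 1156 in the Mul1(+/+) mice (replicates 1 to 3) and 3336, 4304 and 4613 in the Mul1(−/−) mice, in the same order. Here Mul1(−/−) replicate 1 was the lowest of its group and replicate 3 the highest. The mean rose 3.13-fold, from 1303 ± 297 to 4084 ± 666 (SD, n = 3 in each group), with a log2 fold change of 1.66 ± 0.39 SE (limma adjusted p = 0.00889). With 1316 to 5252 reads per library it was the most deeply counted of the 6 genes. The limma adjusted p rose above 0.01 without each library in turn other than Mul1(−/−) replicate 3, reaching 0.0118 to 0.0402, while the log2 fold change stayed between 1.55 and 1.84. Of the 3542 genes of the table, 631 were called without Mul1(−/−) replicate 1, and 10 to 46 in the rest of these fits. An annotated gene on the same strand, Gm42793, shares exon sequence with Spp1, and the counting could have divided reads between them.

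Tspan8 (ENSMUSG00000034127, chr10:115816832-115849893, plus strand) codes for a tetraspanin, a membrane protein that organises adhesion molecules, EPCAM among them, at the cell surface. Its normalized count was 27.8, 77.0 and 40.02 in the Mul1(+/+) mice (replicates 1 to 3) and 346, 79.6 and 234 in the Mul1(−/−) mice, in the same order. The groups touched, with Mul1(−/−) replicate 2 only just above Mul1(+/+) replicate 2, and these 2 values rest on 65 and 87 reads, in that order, so their order is set by the authors' factors. The log2 fold change was 2.05 ± 0.60 SE (limma adjusted p = 0.0141), short of a call. Without Mul1(−/−) replicate 2 it was 2.66 (limma adjusted p = 0.0301), and without Mul1(−/−) replicate 1 it was 1.61 (limma adjusted p = 0.0294). Exons of 4930422I22Rik overlap Tspan8 on the opposite strand, and whether the counting used strand is not given in the sources used here.

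Krt19 (ENSMUSG00000020911, chr11:100140810-100148665, minus strand) and Krt7 (ENSMUSG00000023039, chr15:101411043-101430313, plus strand) code for the type I and type II keratins that tell duct cells from hepatocytes, which build their filaments from keratins 8 and 18. The normalized count of Krt19 was 70.0, 92.1 and 107 in the Mul1(+/+) mice (replicates 1 to 3) and 1151, 176 and 147 in the Mul1(−/−) mice, in the same order. Mul1(−/−) replicate 1 reached 12.8 times the Mul1(+/+) mean, and the mean of replicates 2 and 3 reached 1.80 times. The SD of the Mul1(−/−) libraries, 572, exceeded their mean of 492. The log2 fold change was 1.80 ± 0.70 SE (limma adjusted p = 0.0315), and without Mul1(−/−) replicate 1 it was 0.86 (limma adjusted p = 0.117).

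Krt7 had a normalized count of 68.3, 70.0 and 60.4 in the Mul1(+/+) mice (replicates 1 to 3) and 251, 130 and 94.8 in the Mul1(−/−) mice, in the same order. The Mul1(+/+) libraries lay close together, and the Mul1(−/−) libraries fell in the same order as for Krt19. The log2 fold change of 1.13 ± 0.45 SE was the smallest of the 6 genes (limma adjusted p = 0.0328), and it was 0.74 without Mul1(−/−) replicate 1 (limma adjusted p = 0.166). Both keratins were called without Mul1(−/−) replicate 3, with log2 fold changes of 2.34 for Krt19 (limma adjusted p = 0.0089) and 1.44 for Krt7 (limma adjusted p = 0.00766). In that fit 1595 of the 3542 genes of the table were called higher, against 591 with all libraries. Exons of Gm671 overlap Krt7 on the opposite strand.

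Muc1 (ENSMUSG00000042784, chr3:89229057-89233381, plus strand) codes for a membrane-bound mucin of the apical surface of duct and gland cells. Its normalized count was 21.1, 40.7 and 27.8 in the Mul1(+/+) mice (replicates 1 to 3) and 359, 56.3 and 63.2 in the Mul1(−/−) mice, in the same order. As with Krt19, 1 library carried most of the difference: Mul1(−/−) replicate 1 stood at 6.01 times the mean of Mul1(−/−) replicates 2 and 3. Mul1(−/−) replicate 2 and Mul1(+/+) replicate 2 held the same number of reads, 46. The log2 fold change was 1.88 ± 0.67 SE (limma adjusted p = 0.0238), and 1.03 without Mul1(−/−) replicate 1 (limma adjusted p = 0.0735).

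**Figure D2:**
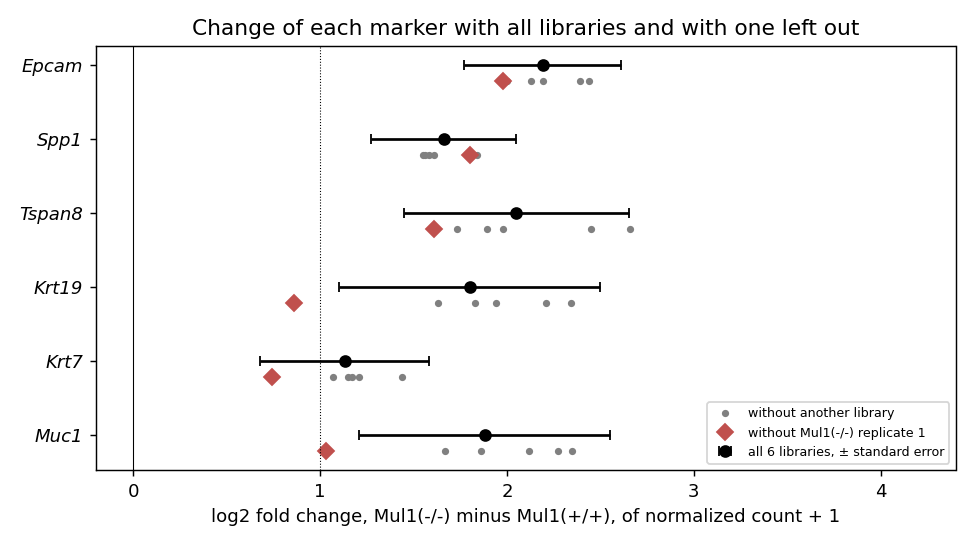
Log2 fold change of each marker, Mul1(−/−) minus Mul1(+/+), with all 6 libraries (black, ± standard error) and with 1 library left out (diamond for Mul1(−/−) replicate 1, dots for the others). The dotted line marks a log2 fold change of 1, which Krt19 (0.86) and Krt7 (0.74) do not reach without Mul1(−/−) replicate 1.

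Of the 6 genes, 2 were called higher, as were 16.7% of the table. Their median log2 fold change was 1.84. The median over the table, 1.12, runs over 2012 higher and 1530 lower genes, so it does not measure how far the higher genes rose. At an adjusted p under 0.05 from limma all 6 passed, and so did 53.0% of the table in that direction. Tested one at a time by exact permutation (two-sided), each of the 6 gave p = 0.1, the smallest value that 3 mice per group allow. Each comparison rests on the authors' scaling of the libraries. Counted in reads with no scaling, Mul1(−/−) libraries were all above Mul1(+/+) libraries for Epcam, Spp1, Krt19 and Krt7, and not for Tspan8 and Muc1, while this held for 37.2% of the table. Under median-ratio scaling, a shift that brought the median of the table to 0.46, it held for Epcam and Spp1, or 2 of the 6, against 34.0% of the table. There the median of the 6 genes was 1.19, and 0 were called by limma, with 2 at an unadjusted p under 0.05. The median-ratio factors came from genes selected as changed, so these losses cannot show whether the authors' scaling was at fault. Rescaled by the table's total, the groups separated for the same 4 genes as in unscaled reads (40.7% of the table), and Epcam was called. With the mitochondrial genome left out of that total they separated for 5 genes, all but Tspan8 (52.0% of the table), and Epcam and Spp1 were called.

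Per kilobase of transcript, Spp1 was the most abundant of the 6 genes in both groups, with a mean of 865 normalized counts per kilobase in Mul1(+/+) and 2710 in Mul1(−/−) HFD-liver. Krt19 came next in Mul1(+/+) libraries, at 56.9, followed by Tspan8 at 35.0, Epcam at 29.7, Krt7 at 16.2 and Muc1 at 13.3 normalized counts per kilobase. Neighbours in this order overlapped in their libraries, other than Spp1 above Krt19 and Epcam (from 21.9) above Krt7 (up to 17.1). In Mul1(−/−) libraries the order per kilobase was Spp1, Krt19 at 312, Tspan8 at 159, Epcam at 136, Muc1 at 71.2 and Krt7 at 38.8, with Spp1 alone clear of its neighbour. The length used for Krt7, 4094 bases, is that of its annotated principal transcript, and a shorter transcript in liver would raise its level on this scale.

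Ratios between genes of 1 library do not depend on how that library was scaled, and several of them differed widely among the Mul1(−/−) libraries. Relative to Epcam, Muc1 stood at 0.472, 0.489 and 0.515 in the Mul1(+/+) mice (replicates 1 to 3) and 0.996, 0.21 and 0.31 in the Mul1(−/−) mice, in the same order. The ratio was thus nearly constant in the Mul1(+/+) libraries, and in the Mul1(−/−) libraries it was above that level in replicate 1 and below it in the other two. Krt19 relative to Epcam went from 1.11 to 1.98 in Mul1(+/+) libraries, and was 3.19 in Mul1(−/−) replicate 1 and 0.658 and 0.72 in replicates 2 and 3. Spp1 ran the other way, with 19.8 to 24.8 in Mul1(+/+) libraries, 9.24 in Mul1(−/−) replicate 1, 16.0 in replicate 2 and 22.6 in replicate 3. Krt7 relative to Epcam was lower in each Mul1(−/−) library (0.465 to 0.696) than in each Mul1(+/+) library (0.84 to 1.53). None of the 5 ratios passed after adjustment: the exact two-sided permutation test gave p = 0.1 for Krt7 (adjusted over the 5 ratios 0.5), and 0.3 to 1.0 for the others.

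**Figure D3:**
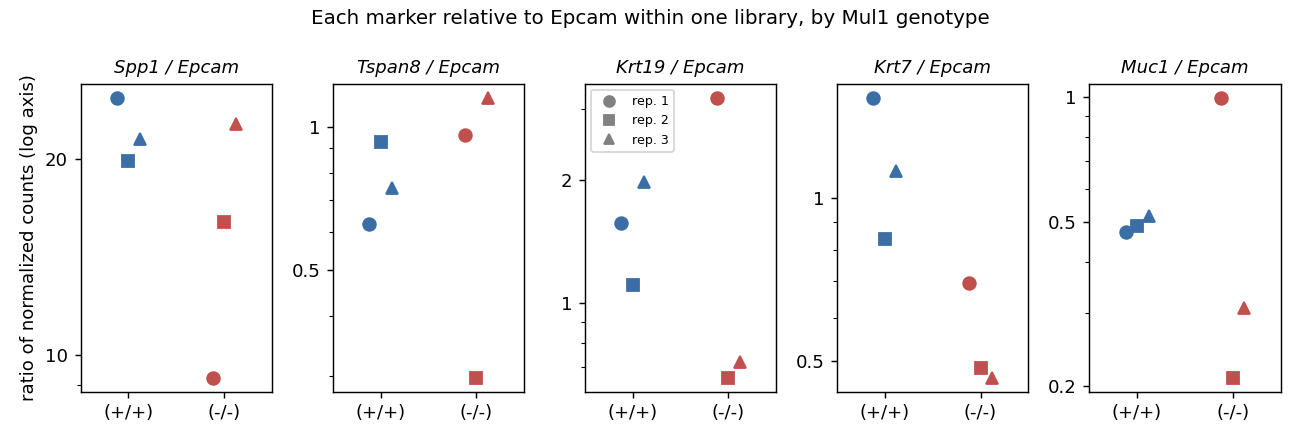
Normalized count of 5 markers divided by that of Epcam in the same library (log axis, its range set for each gene) by Mul1 genotype, with the replicate number as the symbol. For Muc1 the 3 Mul1(+/+) libraries sit between 0.472 and 0.515, with Mul1(−/−) replicate 1 above them at 0.996 and the other Mul1(−/−) libraries below.

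Across the 6 libraries the log2 values of Krt19 and Muc1 had a Pearson r of 0.98 and those of Krt19 and Krt7 one of 0.95, whereas Spp1 and Krt19 had one of 0.55. These figures describe 6 libraries that share their grouping, and they carry no test. Mul1(−/−) replicate 1 was the highest of all libraries for 5 of the 6 genes, with Spp1 the exception. It was also the highest for 771 of the 2012 genes of the table that were higher in Mul1(−/−) HFD-liver, where replicate 2 was the highest for 1069, and it is the library with 49.4% mitochondrial reads. The part of this library's makeup in the values of Krt19, Krt7 and Muc1 was not tested.

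Other genes of the bile duct epithelium moved in both directions. Of 50 further cholangiocyte markers listed, 13 were in the table, of which 10 were higher and 3 lower in Mul1(−/−) HFD-liver on average (median log2 fold change 1.5). Markers outside the table, such as Sox9, were not analysed here. Mmp7, Fxyd3, S100a6 and Anxa13 were called higher, and Krt23 and Aqp1 were called lower. Over the table, 2012 of 3542 genes were higher, 16.7% were called higher and 7.43% were called lower. The balance of 4 higher and 2 lower among the 13 markers became 2 higher and 3 lower under median-ratio scaling. It was 3 and 2 when scaled to the table total, and 4 and 1 with the mitochondrial genome left out of that total. Without Mul1(−/−) replicate 1, 3 of the 13 were called, and without any one of the other libraries except Mul1(−/−) replicate 3 at most 1 was called. Of the 3542 genes of the table, 631 and 10 to 46 were called in these fits, in that order.

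The metalloproteinase gene Mmp7, which is known to be expressed by injured bile duct cells, was nearly absent from Mul1(+/+) HFD-liver, with 1, 3 and 1 reads in replicates 1 to 3. It had 53, 64 and 44 reads in Mul1(−/−) replicates 1 to 3, which is a ratio of 43.2 in summed reads after allowance for the library factors (exact 95% interval from 18.1 to 135, for counting error only; limma adjusted p = 0.00039). Unlike Krt19, it was as high in Mul1(−/−) replicate 2 (78.4 normalized counts) as in replicate 1 (77.4). Fxyd3, a small regulator of the sodium pump, had a normalized count of 4.21, 12.4 and 8.17 in the Mul1(+/+) mice (replicates 1 to 3) and 206, 85.7 and 47.4 in the Mul1(−/−) mice, in the same order (log2 fold change 3.47, limma adjusted p = 0.00574). S100a6, the gene of a calcium-binding protein, rose 5.6-fold (limma adjusted p = 0.00784), and the annexin gene Anxa13 rose 3.63-fold (limma adjusted p = 0.00816). Without Mul1(−/−) replicate 1 the fold of the means fell from 5.6 to 3.46 for S100a6 and from 13.7 to 8.06 for Fxyd3, and was 3.21 for Anxa13.

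Claudin 7, which binds EPCAM at the lateral membrane, had a normalized count of 24.4, 39.0 and 32.7 in the Mul1(+/+) mice (replicates 1 to 3) and 134, 71.0 and 79.0 in the Mul1(−/−) mice, in the same order. The groups of Cldn7 did not overlap, and its log2 fold change was 1.5 (limma adjusted p = 0.0128). Prom1, the gene of CD133, and Spint1, an inhibitor of membrane proteases, likewise did not pass, with log2 fold changes of 1.96 and 1.67 (limma adjusted p of 0.0116 and 0.0104). Cystm1, St14 and Bicc1 had log2 fold changes of 1.43, 1.18 and 1.14 and were not called. As with the 6 markers, Mul1(−/−) replicate 1 was the highest library for 8 of the 10 genes with higher means.

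Of the 3 genes with lower means, Krt23 fell from 518 ± 108 to 122 ± 41.3 (SD, n = 3 in each group; log2 fold change −2.11, limma adjusted p = 0.00697). Krt23, an acidic keratin, was the 1 gene in the table of 18 listed keratins and mucins other than the 6 markers. The water channel gene Aqp1, which endothelial cells also express, fell from 4326 ± 376 to 1297 ± 694 (SD, n = 3 in each group; log2 fold change −1.86, limma adjusted p = 0.00916). The desmosomal cadherin gene Dsg2, which hepatocytes also express, had a log2 fold change of −1.27 and was not called.

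**Figure D4:**
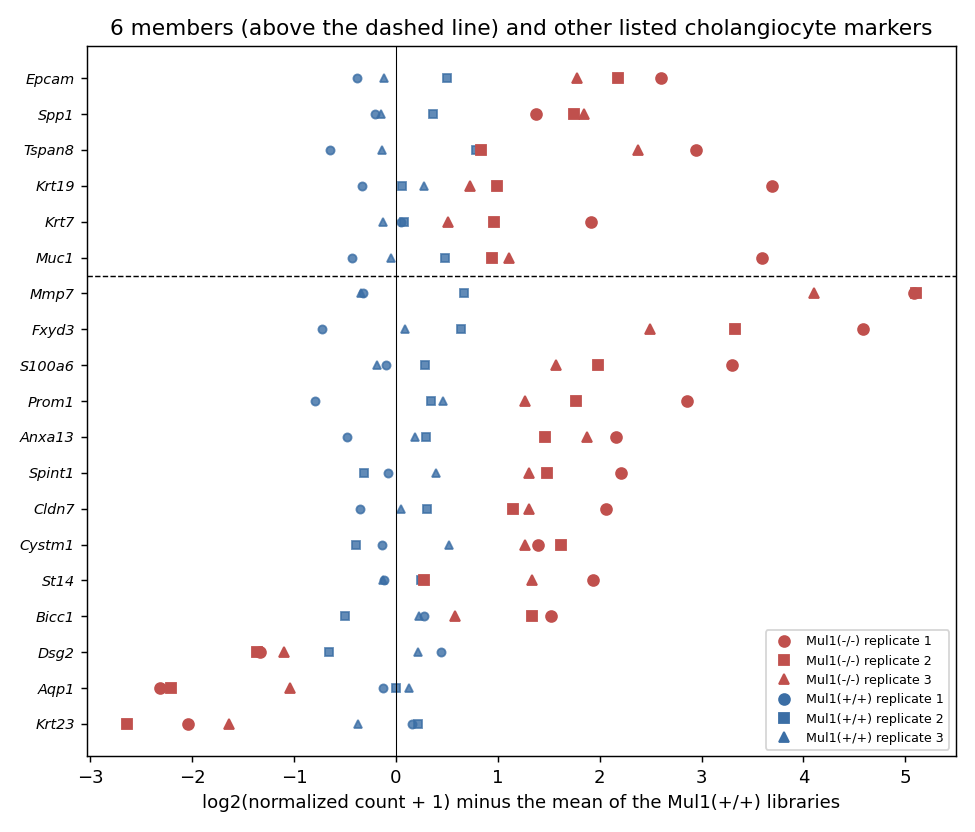
Difference of log2(normalized count + 1) from the mean of the Mul1(+/+) libraries for the 6 bile duct markers and the 13 other listed cholangiocyte markers of the table, in each library. Mul1(−/−) replicate 1 (red circles) is the rightmost for 5 of the 6 bile duct markers and 8 of the 10 other genes with higher means, and Dsg2, Aqp1 and Krt23 lie to the left.

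Signals known to direct duct cells were counted from listed pathway genes. Of 22 genes of the Notch pathway, 6 were in the table, 3 higher and 3 lower (median log2 fold change 0.03). The ligand gene Jag2 was called higher from few reads, with a normalized count of 3.37 to 9.80 in Mul1(+/+) and 17.1 to 32.1 in Mul1(−/−) libraries (log2 fold change 2.07, limma adjusted p = 0.00827). The target gene Hes1 had a log2 fold change of 1.15 and the receptor gene Notch1 one of −1.17, and neither was called. Of 23 genes of the YAP and TEAD pathway, 6 were in the table, 1 higher and 5 lower (median −1.31). The YAP target Ankrd1 was called higher, with 6.20 to 10.6 in Mul1(+/+) and 23.3 to 38.0 normalized counts in Mul1(−/−) libraries (log2 fold change 1.72, limma adjusted p = 0.00909). Stk4, an upstream kinase that restrains YAP, was called lower, with a log2 fold change of −1.76 (limma adjusted p = 0.00992), while Yap1 itself had a log2 fold change of −1.10 and Cyr61, another target, one of −1.52, and neither was called. The groups of Cyr61 overlapped, with 443, 4308 and 761 normalized counts in Mul1(+/+) libraries and 241, 710 and 360 in Mul1(−/−) libraries, and its log2 fold change was −0.55 without Mul1(+/+) replicate 2 and −2.19 without Mul1(+/+) replicate 1.

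Of 33 junction and tetraspanin genes listed as partners of EPCAM and TSPAN8, 10 were in the table, 4 higher and 6 lower (median log2 fold change −1.32). Those called were both lower: Cldn2, a pore-forming claudin, fell to 0.223 of its Mul1(+/+) mean (limma adjusted p = 0.00776) and the desmoplakin gene Dsp to 0.285 (limma adjusted p = 0.00992). Ctnnb1, the gene of beta-catenin, had a log2 fold change of −1.49 and the tetraspanin gene Cd9 one of 1.45, and neither was called. Of 10 receptor genes for osteopontin, 3 were in the table, 0 of them called by limma and 3 at an unadjusted p under 0.05: Itga9 and Itgb5 had log2 fold changes of −1.22 and −1.20 and Itga8 one of 1.05.

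Markers of other cells that can express these genes were set beside them. Of 11 listed markers of lipid-associated macrophages, which also make osteopontin, 8 were present. As did 2012 of the 3542 genes of the table, all 8 had higher means, and their median log2 fold change was 1.68. Their summed normalized count was 2292 to 3098 in Mul1(+/+) and 7166 to 11849 in Mul1(−/−) libraries. Cd63, a tetraspanin of lysosomes, and Lpl, lipoprotein lipase, were called higher (log2 fold changes 2.58 and 1.67, limma adjusted p of 0.0064 and 0.00939), as were 16.7% of the table. Trem2, a lipid receptor that marks these macrophages, had a normalized count of 30.3, 61.1 and 57.2 in the Mul1(+/+) mice (replicates 1 to 3) and 57.0, 121 and 533 in the Mul1(−/−) mice, in the same order, with overlapping groups. Gpnmb had 17.7, 45.2 and 27.8 and then 29.2, 67.4 and 560. Without Mul1(−/−) replicate 3 the log2 fold change fell from 1.69 to 0.80 for Trem2 and from 1.85 to 0.64 for Gpnmb, and neither was called with it. Trem2, Gpnmb and Spp1 thus had their lowest Mul1(−/−) value in replicate 1 and their highest in replicate 3, the reverse of Krt19. The 2 called genes did not follow this order. In Mul1(−/−) replicates 1 to 3, Cd63 had 2030, 4496 and 2038 normalized counts and Lpl had 2084, 3049 and 1710. Of the 8 genes, 5 were highest of all libraries in Mul1(−/−) replicate 3, 3 in replicate 2 and 0 in replicate 1. The part of macrophages in the values of Spp1 was not tested.

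Of 10 mesothelial markers, a cell type that shares keratins 7 and 19 with duct cells, Wt1 was the 1 gene in the table (10.6 to 17.7 normalized counts in Mul1(+/+) and 38.0 to 52.7 in Mul1(−/−) libraries, limma adjusted p = 0.0111). Of 14 pancreatic acinar markers Spink1 was the 1 gene in the table and was called higher (3.37 to 11.5 and 21.9 to 151, limma adjusted p = 0.0091), with its highest value in Mul1(−/−) replicate 2, without which its log2 fold change was 2.14 in place of 2.83 (3.5 without Mul1(−/−) replicate 1). Of 12 intestinal epithelial markers 0 were in the table. Of 28 hepatocyte markers, 6 were present (5 lower, 1 higher) and 0 called (median log2 fold change −1.17; all 6 at an unadjusted p under 0.05 from limma), and their summed normalized count was 765253 to 944840 in Mul1(+/+) and 573861 to 827756 in Mul1(−/−) libraries. Hnf4a, a regulator of hepatocyte identity, was among the 5, with a log2 fold change of −1.81 (limma adjusted p = 0.0135). Endothelial markers were all lower, 6 of 6 in the table out of 18 listed (median −1.13), as were 1530 of the 3542 table genes. Dnase1l3 was called lower (log2 fold change −2.56, limma adjusted p = 0.00518), as were 7.43% of the table. The summed normalized count of the 6 endothelial markers was 8808 to 9685 in Mul1(+/+) and 2914 to 4347 in Mul1(−/−) libraries. Stellate cell markers held 4 of 18 in the table (3 higher, 1 lower), and their sum was 4825 to 5814 normalized counts in Mul1(+/+) and 9296 to 29237 in Mul1(−/−) libraries. Most of that sum was Dcn, with 3452 to 4335 in Mul1(+/+) libraries and 11555, 24011 and 5569 in Mul1(−/−) replicates 1 to 3. The log2 fold changes were 1.62 for Col3a1, 1.55 for Dcn, 0.97 for Lum and −1.79 for Ngfr. Of 16 Kupffer and macrophage markers Lyz2 was in the table, of 17 lymphocyte markers 3 were, and of 11 neutrophil markers Csf3r was, all with higher means. The median log2 fold change of the 3 lymphocyte markers was 1.79. Limma called 0 of the stellate, macrophage, lymphocyte and neutrophil genes, although 3, 1, 3 and 0 had an unadjusted p under 0.05. Of 10 fetal liver and progenitor markers, Afp and Prom1 were in the table, and Afp passed as lower (log2 fold change −2.12, limma adjusted p = 0.00862).

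**Figure D5:**
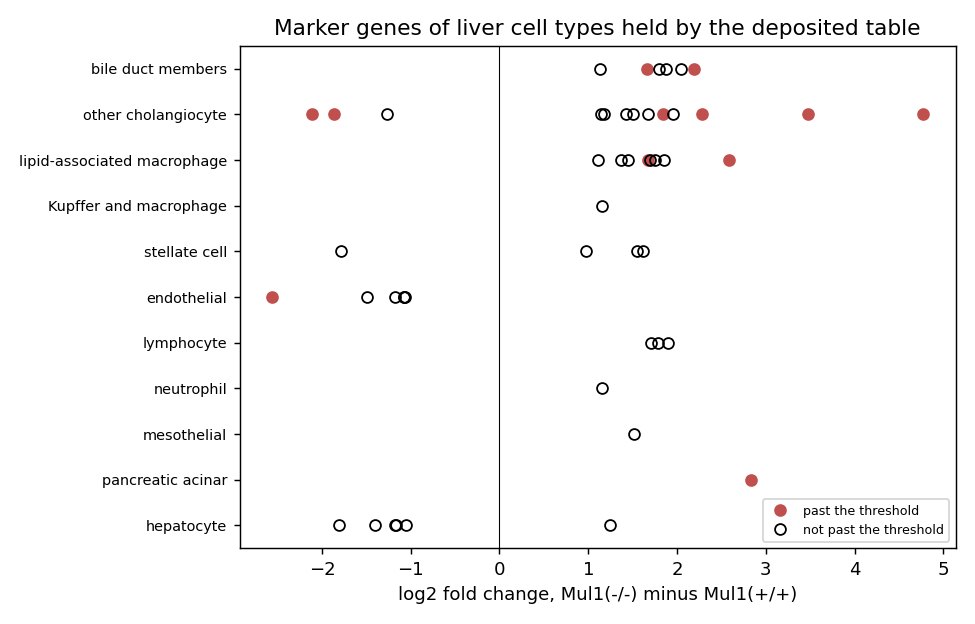
Log2 fold change, Mul1(−/−) minus Mul1(+/+), of the listed marker genes of each cell type that the deposited table holds, one circle per gene, filled where the gene was called. The 6 bile duct markers, lipid-associated macrophage markers and lymphocyte markers all lie to the right of 0, and endothelial markers all lie to the left. Kupffer, neutrophil, mesothelial and pancreatic acinar markers, with 1 gene each, also lie to the right.

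The genes whose values over the 6 libraries were most like the mean of the 6 markers were Sytl2 (Pearson r = 0.997), Cdkn2a (0.993), Cldn7 (0.992), Gipc2 (0.991) and Slc4a3 (0.991). Cdkn2a, the locus of the p16 and ARF cell cycle inhibitors, had a normalized count of 16.9, 27.4 and 22.0 in the Mul1(+/+) mice (replicates 1 to 3) and 111, 56.3 and 59.7 in the Mul1(−/−) mice, in the same order. Slc4a3, an anion exchanger gene, rose 7.22-fold and was called (limma adjusted p = 0.00906), as was Gipc2 (5.39-fold, limma adjusted p = 0.00803). Slc4a3 had 155 normalized counts in Mul1(−/−) replicate 1 against 35.5 and 36.9 in replicates 2 and 3, and without replicate 1 the fold was 3.45 for Slc4a3 and 3.58 for Gipc2. These 5 genes were ranked among genes selected for a difference between the same groups, and the ranking carries no test.

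The bases ahead of the start site are shown for 4 of the markers, chosen because their promoters hold the same short motif. That these 4 share it was thus fixed by the choice. RefSeq gives a promoter for 5 of the 6 genes, Krt19 being the one without an entry, and the 150 bases before each start were searched on both strands for short motifs chosen with earlier results of these data known. The sequence CACCTG, an E-box that repressors of the SNAI and ZEB families can bind in epithelial promoters, was found in Epcam, Spp1, Krt7 and Muc1, and not in Tspan8. It occurs in 10.6% of the 32851 mouse promoter windows of the same length. Those windows were not matched for GC, which was 70.0% in Krt7 against a median of 54.0% over all windows. The windows are printed on the gene's strand of GRCm38.p6, with CACCTG or its reverse complement in capitals. They lie at chr17:87635829-87635978 for Epcam, chr5:104434961-104435110 for Spp1, chr15:101412253-101412402 for Krt7 and chr3:89228906-89229055 for Muc1, all on the plus strand.
Epcam: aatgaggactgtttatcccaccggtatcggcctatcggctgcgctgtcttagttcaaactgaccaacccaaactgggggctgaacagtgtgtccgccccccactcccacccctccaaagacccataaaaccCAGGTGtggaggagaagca
Spp1: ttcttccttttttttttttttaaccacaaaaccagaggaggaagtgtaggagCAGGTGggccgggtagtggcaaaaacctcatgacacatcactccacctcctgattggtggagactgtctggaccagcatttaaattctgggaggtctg
Krt7: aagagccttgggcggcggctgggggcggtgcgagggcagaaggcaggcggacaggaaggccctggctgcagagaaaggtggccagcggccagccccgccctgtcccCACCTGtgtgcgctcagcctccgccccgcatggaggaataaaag
Muc1: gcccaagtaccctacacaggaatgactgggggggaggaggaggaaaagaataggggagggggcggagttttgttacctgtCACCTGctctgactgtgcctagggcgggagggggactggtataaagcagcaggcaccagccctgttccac

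The motif begins 19 bases before the start in Epcam, 98 in Spp1, 44 in Krt7 and 70 in Muc1. The start used for Krt7 lies 1360 bases inside the gene as GENCODE M21 draws it, and that of Tspan8 452 bases inside. A TATA box core, TATAAA, lies in Muc1 31 bases before the start (7.57% of all windows hold it), and the shorter ATAAA, which overlaps it, lies in Epcam 27 bases and in Krt7 7 bases before (5.5% of windows have it on the gene's strand in the last 40 bases). The GC box GGGCGG was found in Epcam, Krt7 and Muc1 (28.6% of windows), CCAAT in Spp1 (24.5%) and the TEAD motif GGAATG in Muc1 (7.59%). The AP-1 motif TGACTCA (2.84% of windows), the SOX motif AACAAT (5.31%) and the GRHL core AACCGG (3.54%) were in none of the 5 windows. A match describes the letters of these windows and not the binding of a factor.

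The length of a transcript moved with the direction of change in these libraries. The protein-coding genes of the table were ordered by the length of the principal transcript and divided into 10 bins of 283 or 284 genes. In bin 1, with a median length of 682.5 bases, 97.9% of genes were higher in Mul1(−/−) HFD-liver, against 21.5% in bin 10, with a median of 7646 bases. Tspan8 lies in bin 2, where 86.6% of genes were higher, Spp1 and Krt19 in bin 3 (68.0%), and Epcam and Muc1 in bin 4 (56.0%). Krt7, by its principal transcript, lies in bin 7, where 32.4% were higher. The part of transcript length in the values of the 6 genes was not tested.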

How the data were processed

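The authors had GENEWIZ make, sequence and analyse the libraries, with DESeq2 as the test between genotypes. Aligner, counter, build, annotation and use of strand are not given in the sources used here. The authors deposited normalized read counts for 3542 genes that had passed their test. Their deposited log2 fold changes, p-values and adjusted p-values were not used. All values under 10000 (100%) were whole multiples, within 0.1 read, of the value of 1 read per library, which gave the reads quoted. Counting error and the spread between 3 libraries per group limit the precision of each value.

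limma 3.58.1 in R 4.3.3 was fitted to log2(value + 1) with genotype as the only term and no filter, and Benjamini-Hochberg adjustment ran over the table. The scale understates changes of genes with few reads, and a test over genes selected on the same libraries is no independent evidence. Calls needed an adjusted p under 0.01 and a log2 fold change beyond 1 in size. The fit was also run on simulated data with the same spread for all genes and most genes unchanged. Those settings differ from this table of selected genes, so that run checks the code and not the calls given here. Python 3.11.15, scipy 1.17.1 and matplotlib 3.10.9 were used for the rest. Coordinates and lengths (longest principal coding transcript) are from GENCODE M21 on GRCm38, which matched 3529 identifiers, and promoters from RefSeq on GRCm38.p6. Both may differ from the authors' build.

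The members and gene lists were chosen with earlier results of these data known. The 6 markers are named, all listed cholangiocyte markers of the table, at most the 5 largest changes of each other list, and the 5 genes most like the markers. Alternatives were other pseudocounts, a filter, rescalings, limma-trend, a looser threshold, a replicate block and leaving out each library. The comparison of unscaled reads and the log2 fold changes of other named genes without each library were added after seeing the data.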

Additional observations from a re-analysis of the deposited data

How the results depend on the processing

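With 3 libraries per group, and with 25 reads for the lowest marker value, the calls depended on the setting more than the directions did. The 6 markers kept higher means in Mul1(−/−) HFD-liver under all alternatives run. Instead of 2, the number of the 6 called was 0 when rescaled by the median ratio, 1 when rescaled by the table total, 6 at an adjusted p under 0.05, and 0 to 4 with each library left out. In the same settings and order, the number of the 3542 table genes called higher was 236, 619, 1877, and 9 to 1595, instead of 591. Instead of 854, the number of table genes called was 1459 with a pseudocount of 10, 1343 when rescaled by the table total, 1869 with limma-trend, 3380 at an adjusted p under 0.05, and 10 to 2673 with each library left out. Instead of 6, the number of other cholangiocyte markers called was 10 with limma-trend, 13 at an adjusted p under 0.05, and 0 to 11 with each library left out. Among the fits with a library left out, the highest counts came without Mul1(−/−) replicate 3. The median log2 fold change of the 6 markers, 1.84, went from 1.19 to 2.20 over the alternatives. The cause of these differences was not tested.

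Replicate numbers are shared by the groups, but the deviations of equal numbers correlated at 0.02, 0.35 and 0.05, so the numbers were not taken to pair the mice. With the replicate block, 0 genes of the table, 0 of the 6 markers and 0 of the other cholangiocyte markers were called by limma, with 4 of the 6 markers at an unadjusted p under 0.05. The adjusted p of Epcam and of Spp1 was then 0.0159 for both. The count tests planned on recovered reads (edgeR with the authors' factors or with TMM, and DESeq2) were not run.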
